A study of Homo sapiens with 6 samples.

Results

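The 40 genes described here encode the core machinery of autophagy and the receptors that bring cargo to it. They were listed by gene name, with no threshold on a measured value, and each had 1 row among the 58735 rows of the count table. RNA was sequenced from ACHN cells, an established human renal cancer cell line, in 2 groups of 3 libraries. The cells of the first group had been given a small interfering RNA (siRNA) that targets OTUD1, labelled si01, and those of the second a control siRNA, labelled NC. OTUD1 is a deubiquitinase, and the study's title links it to STAT3 and PD-L1. All libraries come from 1 cell line, and the labels name neither separate cultures nor a second siRNA against OTUD1. The spread that the p-values rest on is therefore that between these libraries and may be technical.

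Autophagy encloses parts of the cytoplasm in a double membrane, the autophagosome, which fuses with lysosomes so that its content is degraded. The ULK1 kinase complex starts the process, a lipid kinase complex around Beclin 1 marks the growing membrane with phosphatidylinositol 3-phosphate, and WIPI, ATG2 and ATG9 proteins feed it with lipid. A pair of ubiquitin-like conjugation reactions then attach ATG8 proteins (the LC3 and GABARAP families) to the membrane, where they bind cargo receptors. Several core proteins are regulated mainly by phosphorylation, lipidation and turnover, none of which RNA-seq measures. In kidney tubules the pathway is known to protect epithelial cells from injury.

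OTUD1 mRNA was at 1.28, 0.844 and 1.39 CPM (counts relative to the library total, scaled by the TMM method) in the OTUD1 siRNA libraries, against 3.82, 3.69 and 3.8 CPM in the control libraries. Its log2 fold change was -1.69 (standard error, SE, 0.24, adjusted p by the edgeR quasi-likelihood test = 4.37e-07). Library totals ran from 17243433 to 21013530 counts in the OTUD1 siRNA group and from 16753495 to 18993534 in the control group. The 6 markers listed for a renal epithelial line were PAX8, PAX2, KRT8, KRT18, VIM and CDH2. All were detected, and each of the 6 fell, with log2 fold changes from -1.2 to -0.5. They summed to 3610 to 3710 CPM after OTUD1 siRNA and 7080 to 7300 CPM in controls. KRT8 alone averaged 1960 CPM after OTUD1 siRNA and 4110 CPM in controls. Of 5 leukocyte markers, PTPRC and CD3E were at 0 in all 6 libraries, and the list summed to 0.644 to 1.33 CPM after OTUD1 siRNA and 1.32 to 1.57 CPM in controls. Of 6 endothelial and fibroblast markers none was at 0 in every library, but only COL1A1 had enough counts to be tested. COL1A1 averaged 5.08 CPM after OTUD1 siRNA and 3.94 CPM in controls and was not called (adjusted p by edgeR = 0.0678). It made up most of the list's sum, 5.16 to 6.6 CPM after OTUD1 siRNA and 3.58 to 5.6 CPM in controls. Their part in the results below was not tested. In bulk RNA, fewer cells of a type and less RNA per cell cannot be told apart.

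The question here was how the mRNAs of the autophagy machinery differed between OTUD1 siRNA and control siRNA. All 40 members had enough counts to be tested. After OTUD1 siRNA, 19 rose and 7 fell at an adjusted p below 0.05, and 14 did not pass. The background was large: of 15244 genes tested, 29.3% were called higher, 31.1% lower and 60.4% in either direction. With library totals as the scale in place of TMM, 6189 of all genes were called higher and 3456 lower, against 4460 and 4746 with TMM, and 24 members were called higher and 6 lower. The members' 47.5% higher and 17.5% lower stand beside those shares as a description, without a test of the list. Among the 10269 tested genes within the members' range of mean CPM, 30.5% were called higher and 38.4% lower. The members' median log2 fold change was 0.14, against 0.0056 over all genes tested and -0.038 over those 10269 genes. The 9 pairings of an OTUD1 siRNA library with a control library gave medians of 0.076 to 0.14 for the members.

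The changes were small. The median size of a member's log2 fold change was 0.19, against 0.32 over all tested genes. Over the 10269 tested genes within the members' range of mean CPM it was 0.27. The members' log2 fold changes ranged from -0.74 to 0.74. The steepest, that of ATG4A, ranked 2673 by size among the 15244 genes. The OTUD1 siRNA libraries lay wholly above the controls for 21 members and wholly below for 9, against 31.5% and 33.0% of all tested genes, or 64.5% in either direction. For 10 members the groups overlapped.

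**Figure D1:**
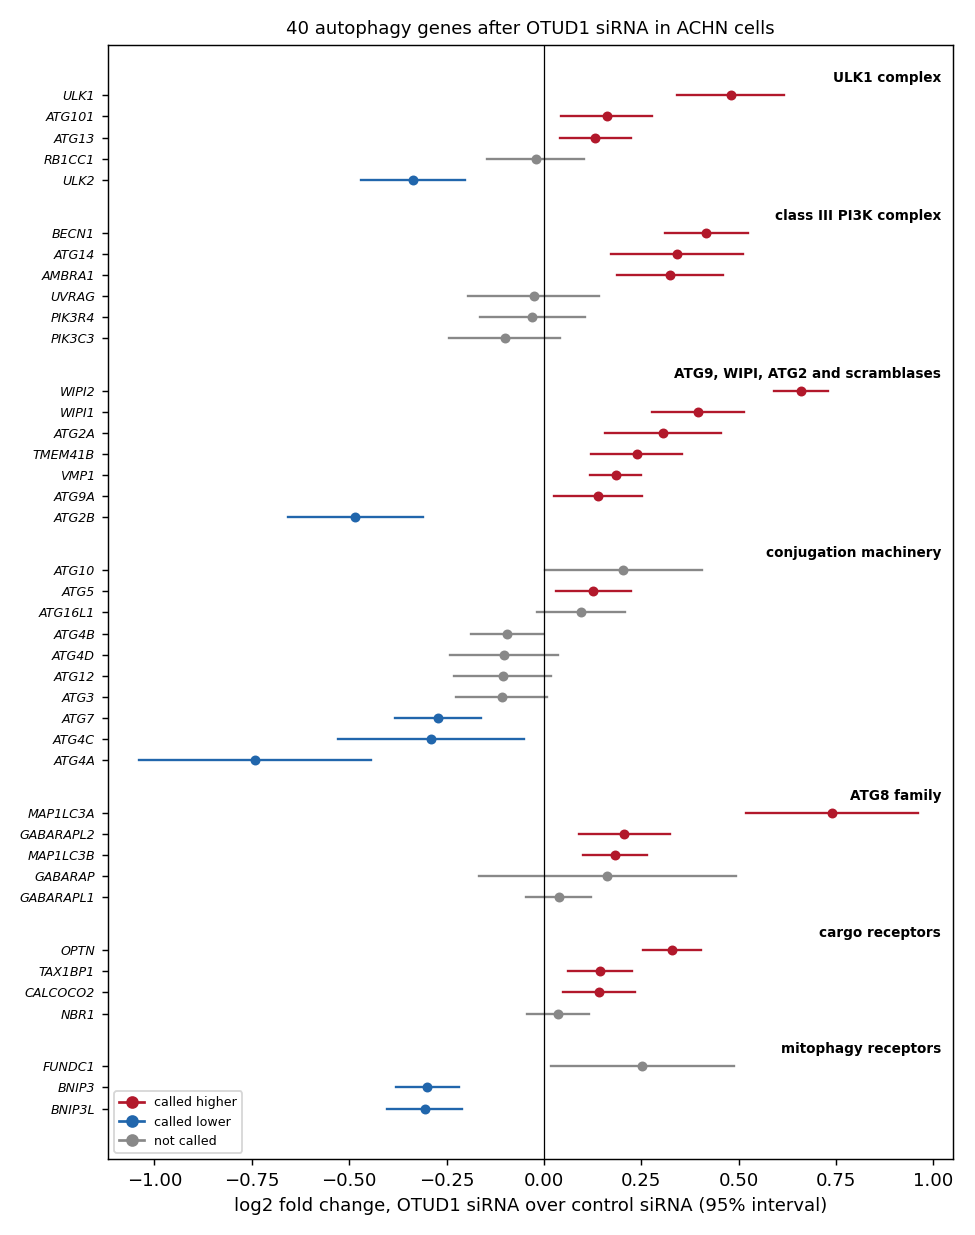
Log2 fold change (OTUD1 siRNA over control siRNA, x axis) of the 40 members by role, with points for the edgeR estimate and lines for its 95% interval, n = 3 libraries per group. The 19 members called higher and 7 called lower are coloured, MAP1LC3A (0.74) and ATG4A (-0.74) lie at the ends, and the ATG9, WIPI, ATG2 and scramblase group holds 6 of the 19.

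**Figure D2:**
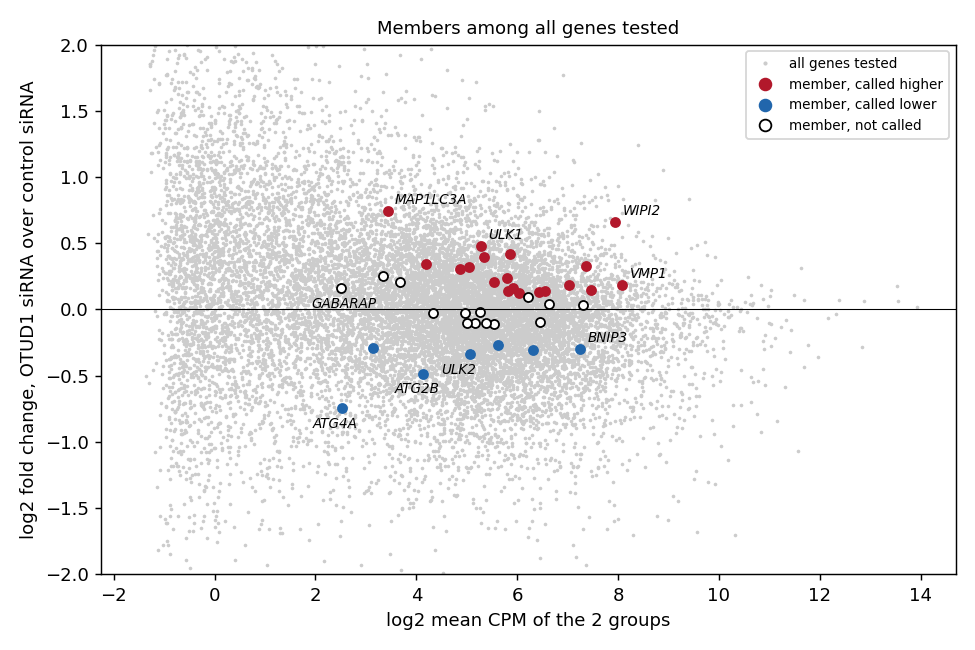
Log2 fold change (y axis, OTUD1 siRNA over control siRNA) against log2 mean CPM (x axis) for the 40 members, coloured by call, over all 15244 genes tested in grey; 93 grey genes beyond 2 on the y axis are not drawn. The members lie inside the cloud of all genes, between -0.74 and 0.74.

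Of the 5 genes of the ULK1 complex, 3 rose and ULK2 fell. ULK1 (hg38 chromosome 12, 131894651 to 131923167, plus strand), the kinase that starts autophagosome formation, had 43.7, 46.8 and 45.7 CPM after OTUD1 siRNA, against 36.5, 30 and 31.2 CPM in controls. The groups did not overlap, and the log2 fold change was 0.48 (SE 0.067, adjusted p by edgeR = 3.98e-07), or 1.39-fold. Its paralogue ULK2 (chromosome 17, 19770829 to 19867936, minus strand) had 27.9, 31.8 and 29.6 CPM after OTUD1 siRNA, against 38.5, 37.7 and 36.4 CPM in controls. All 3 OTUD1 siRNA libraries were below all controls, a log2 fold change of -0.34 (SE 0.065, adjusted p by edgeR = 5.43e-05). The scaffold subunits ATG13 and ATG101 rose by 0.13 and 0.16 on the log2 scale. In ATG101 the groups overlapped, and the call was lost without OTUD1 siRNA replicate 1 (0.12, adjusted p by edgeR = 0.127) or control replicate 2 (0.11, adjusted p = 0.103). RB1CC1, which encodes the large scaffold FIP200, averaged 38 ± 1.91 CPM after OTUD1 siRNA and 38.6 ± 1.16 CPM in controls (SD, n = 3 each), with a 95% interval of the log2 difference from -0.15 to 0.1.

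Of the 6 genes of the class III phosphatidylinositol 3-kinase complexes, 3 rose and 0 fell by edgeR (the smallest unadjusted p of the other 3 was 0.155, and DESeq2 called 0 lower as well). BECN1 (chromosome 17, 42810134 to 42833350, minus strand), which encodes the scaffold Beclin 1, had 64.3, 69.8 and 64.8 CPM after OTUD1 siRNA, against 49.1, 50.2 and 49.6 CPM in controls. The lowest OTUD1 siRNA library stood well above the highest control, and the log2 fold change was 0.42 (SE 0.052, adjusted p by edgeR = 5.61e-08). On the opposite strand, CNTD1 shares 795 exonic bases with BECN1 and PSME3 shares 300. CNTD1 was not called (adjusted p by edgeR = 0.334) and PSME3 was lower (adjusted p = 0.00104). Their part in the BECN1 count was not tested. ATG14, the subunit that directs the complex to sites of autophagosome formation, had 20, 20.1 and 21.7 CPM after OTUD1 siRNA, against 15.5, 16.7 and 16.4 CPM in controls (log2 fold change 0.34, SE 0.083). AMBRA1, a Beclin 1 partner that also acts in ubiquitin ligase complexes, had 38.4, 36.2 and 35.5 CPM after OTUD1 siRNA, against 27.5, 31.7 and 28.8 CPM in controls (0.32, SE 0.066). Neither gene's groups overlapped. The catalytic subunit PIK3C3, its regulatory subunit PIK3R4, and UVRAG, which takes the place of ATG14 in a second complex, were not called, with log2 fold changes of -0.1, -0.03 and -0.026. Their 95% intervals ran from -0.24 to 0.041, -0.17 to 0.11 and -0.19 to 0.14. PIK3C3 was called lower without OTUD1 siRNA replicate 2 (log2 fold change -0.19, adjusted p by edgeR = 0.0219).

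All 7 genes of the ATG9, WIPI, ATG2 and scramblase group passed the test, 6 of them as higher. WIPI2 (chromosome 7, 5190188 to 5233826, plus strand) binds phosphatidylinositol 3-phosphate and recruits the ATG16L1 complex. It had 296, 302 and 306 CPM after OTUD1 siRNA, against 195, 193 and 184 CPM in controls. The spread within a group was under 6 CPM (SD 4.91 and 5.51), and the log2 fold change was 0.66 (SE 0.034, adjusted p by edgeR = 3.73e-16), or 1.58-fold, the smallest p among the members. Its paralogue WIPI1 had 46.5, 46.8 and 44.5 CPM after OTUD1 siRNA, against 35.2, 35.6 and 33.9 CPM in controls, a log2 fold change of 0.4 (SE 0.058) with no overlap of the groups. On the opposite strand, ARSG shares 828 exonic bases with WIPI1, or 24.3% of the exonic length of WIPI1. ARSG was not called (adjusted p by edgeR = 0.178), and its part in the WIPI1 count was not tested.

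The lipid transfer proteins ATG2A and ATG2B, which carry phospholipids into the growing membrane, moved in opposite directions. ATG2A had 31.8, 30.3 and 34.6 CPM after OTUD1 siRNA, against 28, 26.5 and 23.7 CPM in controls (log2 fold change 0.31, SE 0.073, adjusted p by edgeR = 0.000635). ATG2B (chromosome 14, 96279202 to 96363870, minus strand) had 14.6, 14.4 and 15 CPM after OTUD1 siRNA, against 19.5, 21.7 and 20.2 CPM in controls (-0.48, SE 0.085, adjusted p = 1.53e-05). Within each gene the groups did not overlap. The scramblases of the endoplasmic reticulum VMP1 and TMEM41B rose by 0.18 and 0.24 on the log2 scale, and the scramblase of autophagy vesicles ATG9A by 0.14. ATG9A lost its call with no filter on low counts (adjusted p by edgeR = 0.0558), with DESeq2 (0.0504), and without OTUD1 siRNA replicate 1 (0.207), OTUD1 siRNA replicate 3 (0.0857) or control replicate 3 (0.0736). A gene annotated on the same strand, AC068946.2, shares 1833 exonic bases with ATG9A. It had 2, 1 and 3 counts after OTUD1 siRNA, against 1, 1 and 2 counts in controls. How reads in these bases were counted is not given, so the level of ATG9A is uncertain.

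The conjugation machinery had the smallest share of calls among the 7 roles. Of 10 genes, ATG5 rose, ATG4A, ATG4C and ATG7 fell, and 6 did not pass. ATG4A (chromosome X, 108091668 to 108154671, plus strand), a protease that trims ATG8 proteins and removes them from membranes, had 4.65, 3.87 and 4.39 CPM after OTUD1 siRNA. In controls it had 6.45, 7.05 and 8.12 CPM. The levels rest on 78 to 102 counts per OTUD1 siRNA library and 103 to 139 per control library, and the groups did not overlap. The log2 fold change was -0.74 (SE 0.15, adjusted p by edgeR = 6.69e-05), or 1.67-fold lower. ATG4C, another protease of the family, had 8.62, 7.79 and 7.39 CPM after OTUD1 siRNA, against 10.6, 9.09 and 9.52 CPM in controls (log2 fold change -0.29, SE 0.12, adjusted p by edgeR = 0.0325). Its call was the least stable of the 26, as 7 of the 13 alternatives tried ended it, among them DESeq2 (adjusted p = 0.0871), library totals as the scale (0.231) and 4 of the 6 fits without a single library (0.0504 to 0.128).

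ATG7, the E1-like enzyme that activates both ATG12 and the ATG8 proteins, had 45.9, 45.1 and 43.3 CPM after OTUD1 siRNA, against 53.7, 53.7 and 54.8 CPM in controls. All OTUD1 siRNA libraries were below all controls (log2 fold change -0.27, SE 0.053, adjusted p by edgeR = 6.95e-05). On the opposite strand, VGLL4 shares 1596 exonic bases with ATG7, or 18.1% of its exonic length, and VGLL4 was lower too (adjusted p by edgeR = 1.43e-09). Its part in the ATG7 count was not tested. ATG5, which is joined to ATG12, moved against these members, with 68.7, 69.1 and 68.3 CPM after OTUD1 siRNA and 63.8, 62 and 63 CPM in controls (log2 fold change 0.13, SE 0.047, adjusted p by edgeR = 0.0212). It lost its call without OTUD1 siRNA replicate 1 (adjusted p = 0.0569) or replicate 2 (0.0591), and with no filter on low counts (0.0667). The E2-like enzymes ATG3 and ATG10, the proteases ATG4B and ATG4D, ATG12 and ATG16L1 were not called, with log2 fold changes from -0.11 for ATG3 and ATG12 to 0.2 for ATG10. ATG3 was called lower without OTUD1 siRNA replicate 2 (adjusted p = 0.0373) and ATG4B without control replicate 2 (0.0243). ATG16L1 was called higher without OTUD1 siRNA replicate 1 (0.0191) or control replicate 1 (0.0339), and with a minimum mean of 5 CPM (0.0223), library totals (0.000731) or quantile normalization (0.00732). ATG10 was called higher with a minimum mean of 5 CPM (0.0256) or library totals (0.0043).

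Among the 5 ATG8 family genes, 3 rose and 0 fell by edgeR and by DESeq2 (the smallest unadjusted p of the other 2 by edgeR was 0.318). MAP1LC3A (chromosome 20, 34546854 to 34560345, plus strand), which encodes LC3A, had 13, 14.6 and 12.7 CPM after OTUD1 siRNA, against 7.63, 7.98 and 8.53 CPM in controls. The lowest OTUD1 siRNA library was far above the highest control, and the log2 fold change was 0.74 (SE 0.11, adjusted p by edgeR = 8.41e-07), or 1.67-fold. MAP1LC3B, which encodes the LC3B protein used as the standard marker of autophagosomes, had 137, 142 and 136 CPM after OTUD1 siRNA, against 116, 122 and 127 CPM in controls. The groups did not overlap (log2 fold change 0.18, SE 0.04, adjusted p by edgeR = 0.000286). Its near-identical relative MAP1LC3B2 averaged 8.54 ± 0.354 CPM after OTUD1 siRNA and 7.89 ± 0.753 CPM in controls (SD, n = 3 each) and was not called (adjusted p = 0.434). Reads that fit both genes may have gone to either, which leaves both values uncertain.

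GABARAPL2 had 52.7, 49.5 and 48 CPM after OTUD1 siRNA, against 42.6, 42.7 and 44.9 CPM in controls, again without overlap (log2 fold change 0.21, SE 0.057, adjusted p by edgeR = 0.00233). GABARAPL1 had 100, 99.8 and 99.4 CPM after OTUD1 siRNA and 98.1, 97.8 and 96.1 CPM in controls. It was not called, although the groups did not overlap (log2 fold change 0.038, 95% interval -0.046 to 0.12). GABARAP, whose protein gives the subfamily its name, had 6.06, 4.82 and 7.06 CPM after OTUD1 siRNA, against 5.88, 4.24 and 5.9 CPM in controls. Its groups overlapped (log2 fold change 0.16, 95% interval -0.17 to 0.49). GABARAP rests on 77 to 133 counts per library. The protein-coding gene AC120057.2 shares 691 exonic bases on the same strand, 30.5% of the exonic length of GABARAP, and had 0 counts in all 6 libraries. How reads in the shared bases were counted is not given, so the level of GABARAP is uncertain.

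Counted per kilobase of exonic length, MAP1LC3B made up 33.7% ± 0.64 of the family's CPM after OTUD1 siRNA and 33.7% ± 0.86 in controls (SD, n = 3 each). MAP1LC3A made up 9.88% ± 0.67 after OTUD1 siRNA and 6.72% ± 0.24 in controls. GABARAPL1 made up 31.6% ± 0.33 after OTUD1 siRNA and 35.1% ± 1.1 in controls. GABARAPL2 made up 21.4% ± 0.85 after OTUD1 siRNA and 21% ± 0.2 in controls, and GABARAP 3.42% ± 0.68 after OTUD1 siRNA and 3.47% ± 0.6 in controls. The shares of MAP1LC3A and GABARAPL1 thus differed by more than the spread between libraries, and those of the other members did not. All these shares rest on a sum that includes GABARAP, whose level is uncertain because of the overlap given above.

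**Figure D3:**
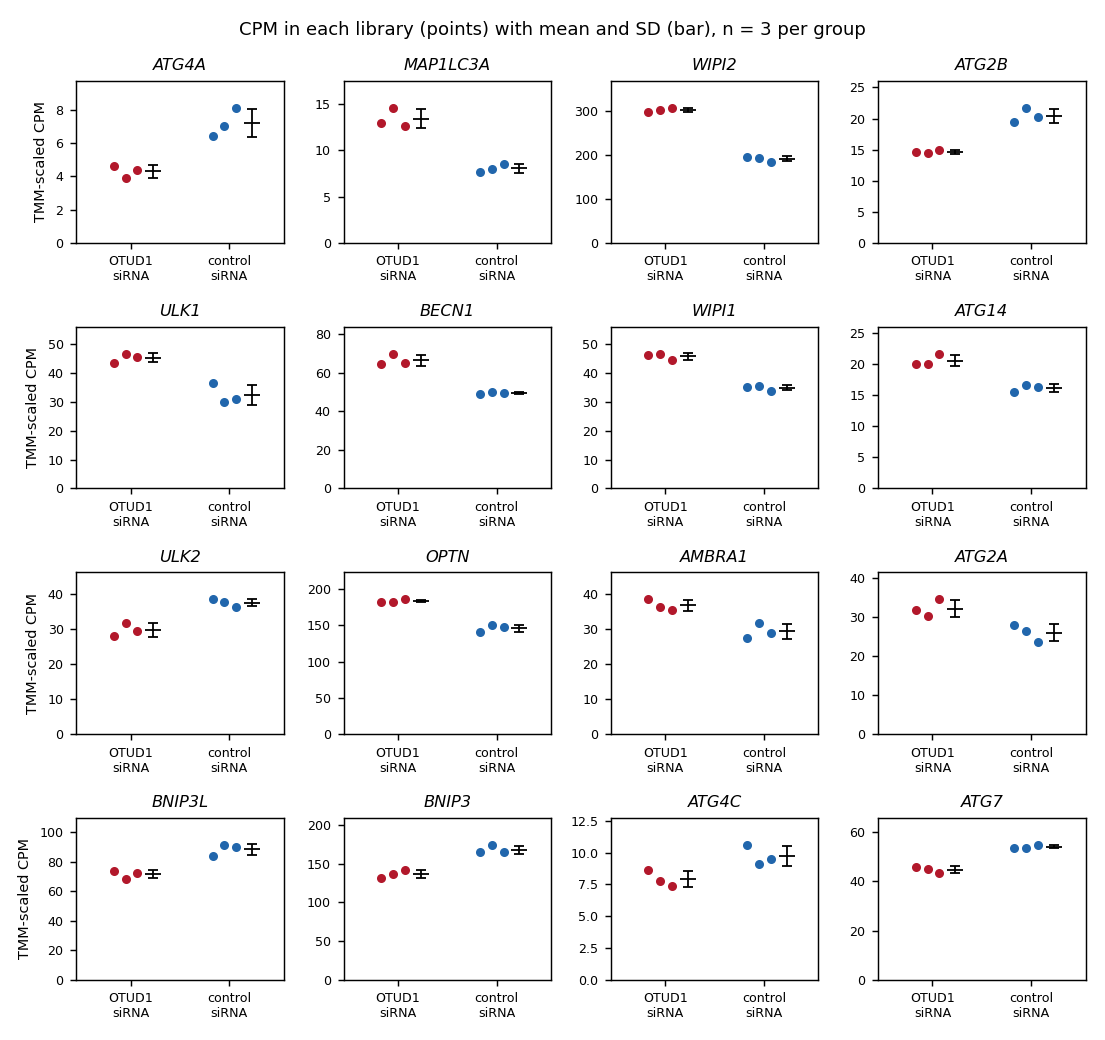
TMM-scaled CPM (y axis, from 0) in each OTUD1 siRNA library (left) and control siRNA library (right) for the 16 called members with the largest log2 fold changes; black bars give the mean and SD, n = 3 per group. In all 16 panels the points of the groups do not overlap, and the means differ most, in fold, for ATG4A and MAP1LC3A (1.67-fold each).

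Of the 4 cargo receptors for ubiquitin-tagged material, 3 rose and NBR1 was not called. OPTN (optineurin; chromosome 10, 13099449 to 13138308, plus strand), which also takes part in clearing damaged mitochondria, had 183, 183 and 186 CPM after OTUD1 siRNA, against 141, 150 and 148 CPM in controls. The groups were far apart for their spread (log2 fold change 0.33, SE 0.036, adjusted p by edgeR = 6.87e-09). CALCOCO2, which encodes NDP52, and TAX1BP1, its relative, each rose by 0.14 on the log2 scale. NBR1, a receptor that also acts on peroxisomes, averaged 160 ± 5.5 CPM after OTUD1 siRNA and 156 ± 6.02 CPM in controls (SD, n = 3 each), with a 95% interval of the log2 difference from -0.044 to 0.12. The receptor SQSTM1 (p62), the founding member of this class, is not among the 40 and went the other way: it had 1020, 1040 and 1070 CPM after OTUD1 siRNA, against 1750, 1700 and 1730 CPM in controls (log2 fold change -0.72, SE 0.026, adjusted p by edgeR = 1.27e-19).

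Of the 3 receptors that sit in the outer membrane of mitochondria, BNIP3 and BNIP3L fell and FUNDC1 was not called. BNIP3 (chromosome 10, 131966455 to 131982013, minus strand), known as a hypoxia-induced mitophagy receptor, had 131, 136 and 142 CPM after OTUD1 siRNA, against 165, 174 and 165 CPM in controls. Its paralogue BNIP3L (NIX), which clears mitochondria from maturing red cells, had 73.9, 68.5 and 72.3 CPM after OTUD1 siRNA, against 84, 91.4 and 90 CPM in controls. Both had all OTUD1 siRNA libraries below all controls, with log2 fold changes of -0.3 (SE 0.039, adjusted p by edgeR = 1.38e-07) and -0.31 (SE 0.048, adjusted p = 2.42e-06). FUNDC1 had 10, 12.8 and 10.2 CPM after OTUD1 siRNA, against 8.76, 9.64 and 9.23 CPM in controls (log2 fold change 0.25, SE 0.11, adjusted p = 0.0589). Its call depended on the fit: it was called higher without OTUD1 siRNA replicate 1 (0.0377) or replicate 3 (0.0436), with a minimum mean of 5 CPM (0.0241) and with library totals as the scale (0.00496).

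Paralogues were compared within each library as a ratio of counts, which no scaling can move. For 6 of 7 pairs, chosen after the values were known, the ratios of the groups did not overlap. The share among gene pairs in general was not computed. For single genes, the groups did not overlap in CPM for 64.5% of all genes tested, so 6 of 7 is not read as a trait of these pairs. The log2 ratio of ULK1 to ULK2 was 0.646, 0.559 and 0.625 in OTUD1 siRNA libraries, against -0.0746, -0.33 and -0.222 in controls, a difference of 0.82. In every OTUD1 siRNA library ULK1 thus had more counts than ULK2, and in every control library fewer, with length not allowed for. Per kilobase of exonic length ULK1 made up 66.9%, 65.6% and 66.6% of the pair in OTUD1 siRNA libraries. In control libraries it made up 55.1%, 50.7% and 52.6%, so by this measure ULK1 exceeded ULK2 in both groups. The log2 ratio of ATG2A to ATG2B averaged 1.13 ± 0.065 after OTUD1 siRNA and 0.346 ± 0.15 in controls (SD, n = 3 each), a difference of 0.79. That of ATG4B to ATG4A averaged 4.31 ± 0.17 after OTUD1 siRNA and 3.66 ± 0.18 in controls, a difference of 0.65. For MAP1LC3A over MAP1LC3B the difference was 0.56, for WIPI2 over WIPI1 0.27 and for GABARAPL1 over GABARAPL2 -0.17. The ratio of BNIP3 to BNIP3L was 0.932 ± 0.091 after OTUD1 siRNA and 0.925 ± 0.051 in controls, with overlapping groups. An exact two-sided permutation test gave p = 0.1 for the 6 pairs (0.117 adjusted over the 7) and p = 0.9 for BNIP3 and BNIP3L. With 3 libraries against 3 this test cannot go below 0.1, so none of these differences could pass.

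**Figure D4:**
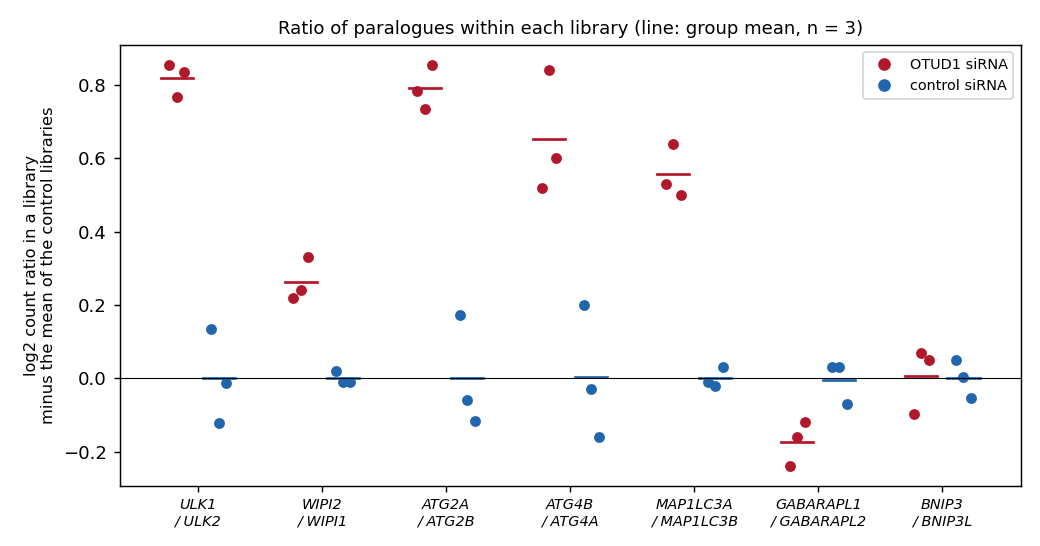
Log2 ratio of the counts of paralogues in each library, minus the mean of the control libraries (y axis), for 7 pairs, with OTUD1 siRNA points left of control points and lines at the group means (n = 3 each). The groups are farthest apart for ULK1/ULK2 (0.82) and ATG2A/ATG2B (0.79), and overlap for BNIP3/BNIP3L.

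The 3′ UTRs of the members were searched for the related 7-mers CAAACAA and AAACAAA, which an earlier analysis of these data had picked out from the genes that fell, so that no count below is independent evidence. The motifs were read on the mRNA strand, and they overlap by 6 bases in CAAACAAA. At least one was present in 10 of 40 members, or 25%, against 33.4% of 12416 tested genes with a 3′ UTR of at least 50 bases. Of the 10 members that carry one, 4 fell (ULK2, ATG2B, ATG4A and BNIP3L) and 2 rose (ATG14 and CALCOCO2). Of the other 30, 3 fell and 17 rose. Among all tested genes with a searched 3′ UTR, 797 of 4141 carriers and 2781 of 8275 others were called higher. The median 3′ UTR length was 2558 bases in members with a 7-mer and 1123 bases in those without, and length was not allowed for. Over all tested genes with a searched 3′ UTR, 48.8% of carriers and 29.1% of the others were called lower. Their median 3′ UTR lengths were 2584 bases in carriers and 702 bases in the others, and length was not allowed for here either. The 7 pairs of paralogues were also chosen with the values known. Among them ULK2, ATG2B and BNIP3L carry a 7-mer where ULK1, ATG2A and BNIP3 carry neither. In each of these pairs the carrier has the longer 3′ UTR. The lengths are 2399 bases in ULK2 and 1806 in ULK1, 6553 in ATG2B and 427 in ATG2A, and 2717 in BNIP3L and 2069 in BNIP3. The groups overlapped in the ratio of BNIP3 to BNIP3L. ATG4A and ATG4B both carry a 7-mer, and no gene of the other 3 pairs does.

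The sites below are shown because they set members that fell beside members that rose while carrying a related 7-mer. Each is written from the mRNA strand of the GENCODE 29 principal transcript (hg38) with the 7-mers in capitals. For ATG2B it is the single CAAACAA site, and for the others the first AAACAAA in the 3′ UTR. The windows lie at chr17:19776006-19776034 (ULK2, minus strand), chr14:96283918-96283946 (ATG2B, minus), chr14:55366767-55366795 (ATG14, minus) and chr17:48865135-48865163 (CALCOCO2, plus).
ULK2: aattaaaaatgAAACAAAgtgagtgctcg
ATG2B: acccggagttgCAAACAAAttaagtttac
ATG14: gtattttgtttAAACAAAaagccatagaa
CALCOCO2: tgctgggtgtaAAACAAAgcatctttaac
ULK2 has 5 copies of AAACAAA in a 3′ UTR of 2399 bases. ATG14 has 2 copies in 3227 bases and CALCOCO2 has 1 in 2240 bases. A match is a description of these letters and does not show that a small RNA binds there.

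Promoter windows, the 250 bases before the most upstream gene start in the RefSeq table used (GRCh38.p14), matched 35 members. For BECN1, ATG16L1 and MAP1LC3B that start lies more than 1000 bases inside the GENCODE 29 gene, so their windows are not upstream of it. None of the 3 windows holds any of the motifs below. The search on both strands used CACGTG, the E-box at the core of the CLEAR element that TFEB and TFE3 bind, and also the shorter core of the hypoxia response element, ACGTG, which lies within the E-box. The E-box was found in 3 of 35 members (8.57%), namely ATG14, ATG3 and BNIP3, against 6.46% of 27305 windows, 1 per gene, and 8.99% of those of tested genes. The longer CLEAR-type element TCACGTGA, also searched, was found in 0 of the 35 members, against 0.879% of all windows and 1.68% of those of tested genes. The hypoxia core was found in 12 members (34.3%), against 18.6% of all windows and 23.6% of those of tested genes. The promoters of ATG14 and BNIP3 are printed because these are the members with the E-box that passed the test, one higher and one lower. They span chr14:55411831-55412080 (minus strand) and chr10:131981924-131982173 (minus strand), with the matches in capitals.
ATG14: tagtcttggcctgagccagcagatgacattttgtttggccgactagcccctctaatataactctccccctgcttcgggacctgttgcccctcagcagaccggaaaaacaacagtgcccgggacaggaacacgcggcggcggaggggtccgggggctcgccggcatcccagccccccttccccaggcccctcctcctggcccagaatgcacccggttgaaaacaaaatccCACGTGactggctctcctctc
BNIP3: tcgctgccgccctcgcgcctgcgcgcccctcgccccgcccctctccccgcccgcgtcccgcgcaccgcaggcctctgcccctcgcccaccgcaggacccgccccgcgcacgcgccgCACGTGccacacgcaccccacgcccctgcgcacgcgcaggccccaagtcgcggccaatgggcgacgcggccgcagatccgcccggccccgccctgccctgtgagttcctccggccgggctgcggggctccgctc
The E-box starts 21 bases before the gene start in ATG14 and 134 bases before it in BNIP3. RB1CC1, UVRAG, ATG4D, MAP1LC3A and BNIP3L had no matching entry.

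Other genes of the pathway were taken from 5 further lists. Of 10 transcription factors linked to autophagy genes, 5 rose and 3 fell. TFEB, which activates lysosomal and autophagy genes, had 14.1, 13.4 and 16.3 CPM after OTUD1 siRNA, against 8.76, 7.98 and 7.53 CPM in controls, 1.8-fold higher without overlap (log2 fold change 0.85, SE 0.11, adjusted p by edgeR = 1.15e-07). TFE3, which binds the same element, averaged 98.7 ± 1.17 CPM after OTUD1 siRNA and 113 ± 1.93 CPM in controls (SD, n = 3 each). It was called lower (log2 fold change -0.19, adjusted p by edgeR = 0.000155). Per kilobase of exonic length TFE3 stood at 23 and 26.3 CPM in these groups, against 2.59 and 1.43 CPM for TFEB. MITF was not called (-0.082, adjusted p by edgeR = 0.313). The hypoxia-inducible factors EPAS1 and HIF1A fell by 0.19 and 0.2 on the log2 scale (adjusted p by edgeR = 1.19e-05 and 1.84e-05). No factor of this list was called lower with library totals or after quantile normalization, and 3 in place of 5 were called higher with no filter and without OTUD1 siRNA replicate 2.

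Of 15 kinase genes and regulators upstream of ULK1 and of the receptors, 5 rose and 7 fell. PRKAG2, a regulatory subunit of the energy-sensing kinase AMPK, averaged 149 ± 5.89 CPM after OTUD1 siRNA and 231 ± 5.78 CPM in controls (SD, n = 3 each; log2 fold change -0.63, adjusted p by edgeR = 9.06e-15). Its paralogue PRKAG1 moved the other way, with 96.6 ± 4.31 CPM after OTUD1 siRNA and 69.2 ± 3.18 CPM in controls (0.48, adjusted p = 7.82e-10). RHEB, the small GTPase that activates mTORC1, fell by 0.45 on the log2 scale (adjusted p = 1.07e-12).

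Of 15 genes of autophagosome-lysosome fusion, 7 rose and 4 fell. LAMP2, a lysosomal membrane protein, had 50.6, 54.1 and 46.7 CPM after OTUD1 siRNA, against 101, 106 and 104 CPM in controls, which made it 2.05-fold lower (log2 fold change -1.04, SE 0.051, adjusted p by edgeR = 1.26e-16). The adaptor PLEKHM1 averaged 86 ± 0.282 CPM after OTUD1 siRNA and 55.9 ± 0.178 CPM in controls (SD, n = 3 each; 0.62, adjusted p = 1.56e-12). The SNARE gene VAMP8 rose by 0.51 on the log2 scale (adjusted p = 1.09e-10).

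Of 14 other selective autophagy receptors and adaptors, 7 rose and 4, SQSTM1 among them, fell. BCL2L13, a mitophagy receptor, averaged 117 ± 2.29 CPM after OTUD1 siRNA and 78.6 ± 0.911 CPM in controls (SD, n = 3 each; log2 fold change 0.57, adjusted p by edgeR = 9.79e-13), and CALCOCO1, an adaptor for the endoplasmic reticulum, rose by 0.59 (adjusted p = 3.03e-09). With library totals as the scale 2 of this list were called lower.

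Of 12 tested paralogues and accessory factors of the core machinery, out of 13 listed, 6 rose and 2 fell. WDR45, which encodes WIPI4, averaged 66 ± 2.17 CPM after OTUD1 siRNA and 42 ± 3.4 CPM in controls (SD, n = 3 each; log2 fold change 0.65, adjusted p by edgeR = 5.86e-11), while WDR45B, which encodes WIPI3, fell by 0.13 on the log2 scale (adjusted p = 0.00142). TP53INP2, which binds ATG8 proteins, rose by 0.74 (adjusted p = 3.19e-08) and TECPR2 by 0.5 (adjusted p = 2.98e-05). The 2 genes called lower became 1 with a minimum mean of 5 CPM, with DESeq2, and without OTUD1 siRNA replicate 1, control replicate 2 or control replicate 3, and 0 with library totals or quantile normalization.

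**Figure D5:**
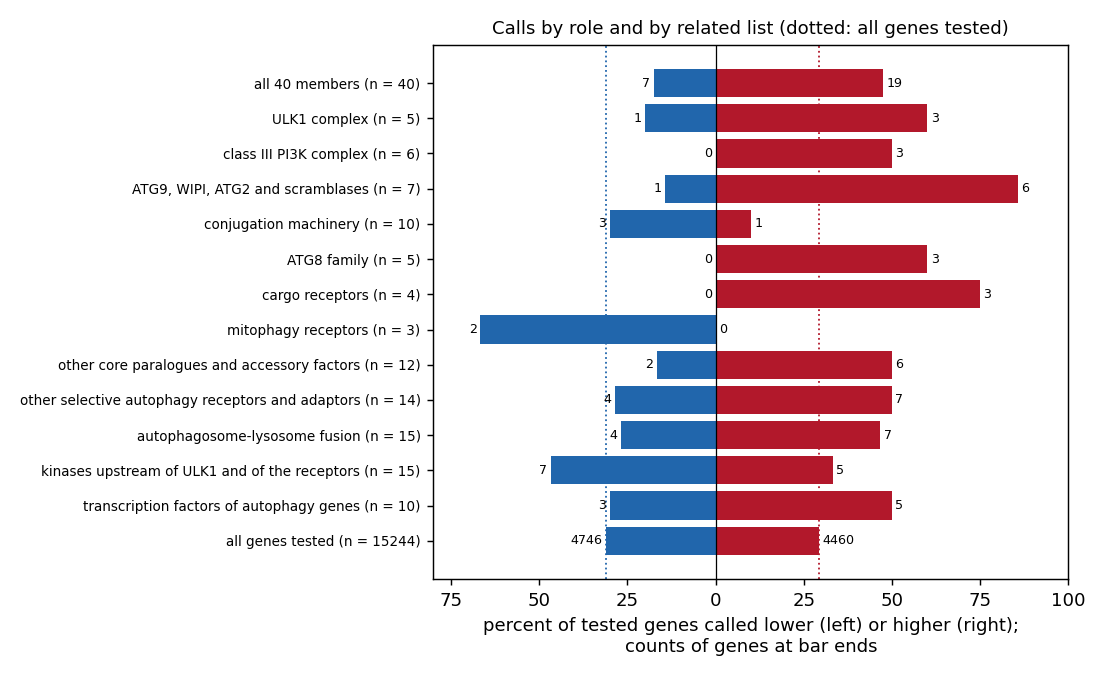
Percent of tested genes called higher (right of 0) or lower (left of 0) after OTUD1 siRNA, by role of the members and in 5 related lists, with counts at the bar ends; dotted lines mark the shares over all 15244 genes tested (29.3% higher, 31.1% lower). The role with the highest share called higher is the ATG9, WIPI, ATG2 and scramblase group with 6 of 7, and that with the highest share called lower the mitophagy receptors with 2 of 3.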

How the data were processed

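The deposited table gives whole-number counts per gene symbol and library, although it is named for FPKM; the values were treated as raw counts. The submitters' processing notes name hg38. Not given in the sources used here are the aligner, the counter, its strand setting and the annotation, so genes with overlapping or antisense partners carry uncertain counts. Per the labels' protocols, libraries came from total RNA with a directional kit.

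Counts were fitted with edgeR 4.0.16 (R 4.3.3): filterByExpr (10 counts in 3 libraries, 15 in all) kept 15244 genes, scaled by TMM (factors 1.045 to 1.046 for OTUD1 siRNA and 0.9549 to 0.9572 for controls), and compared by the two-sided quasi-likelihood test with Benjamini-Hochberg adjustment over all genes and a threshold of 0.05. Each SE is the fold change over the root of its F. A count of 3 equals 0.137 to 0.188 CPM. The fit was tested on simulated data. Libraries of a group differed beyond sampling noise (a chi-square averaging 2.06 to 3.78 per gene). Positions and lengths are from GENCODE 29.

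The member list sets no threshold on measured values, but members and lists were chosen with earlier results of these data known. Values per library are given for the 16 called members with the largest changes, those called against their role, and the ATG8 family. Each other list gives at most 3 called genes, by adjusted p, and at most 1 against its majority. TFE3 and MITF are given besides, next to TFEB. Alternatives were 2 filters, 3 scalings (1 with limma 3.58.1), DESeq2 1.42.0, a replicate block and each library left out.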

Additional observations from a re-analysis of the deposited data

How the results depend on the processing

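Under the 13 alternatives, members called higher numbered 17 to 24 and members called lower 6 to 8 (19 and 7 as reported), and leaving out single libraries gave 18 to 20 and 6 to 8. Call and direction were the same under all 13 for 23 members, 16 higher, 6 lower and 1 not called, and no called member changed direction. The members' median log2 fold change of 0.135 became 0.183 with a minimum mean of 5 CPM, 0.264 with library totals and 0.198 after quantile normalization, and 0.112 to 0.132 without single libraries. Library totals move the median of all genes tested by about 0.13, to 0.134, so that the members stand 0.13 above it, as under TMM; there all genes split into 6189 higher and 3456 lower, against 4460 and 4746 under TMM.

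Changes of sign occurred only for members that were not called in either fit. With a minimum mean of 5 CPM the log2 fold change was 0.027 for RB1CC1, 0.018 for PIK3R4 and 0.022 for UVRAG. With library totals it was 0.11 for RB1CC1, 0.028 for PIK3C3, 0.099 for PIK3R4, 0.1 for UVRAG, 0.021 for ATG3, 0.035 for ATG4B, 0.026 for ATG4D and 0.023 for ATG12. After quantile normalization it was 0.045 for RB1CC1, 0.043 for PIK3R4 and 0.0084 for ATG4B. Without single libraries RB1CC1 ran from -0.055 to 0.018, PIK3R4 from -0.085 to 0.0083 and UVRAG from -0.068 to 0.024. GABARAPL1, NBR1 and ATG16L1 were called higher with library totals (0.17, 0.16 and 0.22) and after quantile normalization (0.14, 0.16 and 0.19), and ATG10 with library totals (0.33); the cause was not tested.

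The labels do not say whether same-numbered libraries share a culture or day. Deviations from the group means correlated at -0.0229, 0.0178 and -0.0182 between same-numbered libraries. Between differently numbered libraries of the groups they correlated at -0.014 to 0.0314. These values show no stronger link between same-numbered libraries, but they cannot show whether the libraries were paired. With the replicate block 20 members were called higher and 7 lower, FUNDC1 being the addition (adjusted p = 0.0485). Depth limits ATG4A, ATG4C and GABARAP most, with under 200 counts in each library.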
